A study of Mus musculus with 6 samples.

Results

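ATF4, 3 of the stress regulators it controls and 6 enzymes that make serine, asparagine and folate-bound carbon units were followed in mouse bone marrow derived macrophages. The genes are Atf4, Asns, Phgdh, Psat1, Psph, Shmt2, Mthfd2, Ddit3, Trib3 and Sesn2. Their probe sets were found by gene symbol in the platform annotation, and the set was proposed with earlier results of these data known. All 10 were measured, each by 1 probe set that names it alone, among 19938 genes in all. Marrow cells of C57BL/6 mice were grown for 7 days with CSF1 (M-CSF), giving M(CSF1) cells, or with CSF2 (GM-CSF), giving M(CSF2) cells. Each group had 3 arrays (Affymetrix Mouse Gene 1.0 ST), called biological replicates in the labels. Whether these are separate mice is not stated, so each p-value rests on a spread between arrays that may be partly technical. Age and sex of the mice and the sorting marker are not stated either. The values are log2 signals.

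ATF4 is a transcription factor of the integrated stress response. When a kinase that senses amino acid shortage, unfolded protein, viral RNA or lack of heme phosphorylates the initiation factor eIF2, most translation slows while ATF4 protein is made from its mRNA more efficiently, so the level of Atf4 mRNA is only part of its control. ATF4 then induces genes for amino acid synthesis and uptake and, in long stress, regulators of cell death and feedback. Serine made by PHGDH, PSAT1 and PSPH from a glycolytic intermediate feeds SHMT2 and MTHFD2 in mitochondria, which pass its carbon to folate for purine synthesis. Macrophages draw on this pathway for glutathione and for cytokine production.

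ATF4 binds, with a C/EBP partner, to a composite site named CARE. Its core, TGATGNAA, was searched on either strand of RefSeq promoter windows of GRCm38.p6, which run from 250 bases before to 50 bases after each gene's start. All 10 genes had a window, and 2 of them, Asns and Trib3, held the core. Among 29 other measured genes known as ATF4 or stress response targets, 24 had a window and 10 held it. Of all 32851 windows, 3.97% held it. The counts here are of genes and the shares are of windows: the 10 genes had 11 windows and the 24 others 31. In the 250 bases before the start alone, Asns and 9 of the other targets held it, against 3.45% of all windows. The longer form TGATGCAAT, which contains the core, was in no window of the 10 genes, in the windows of Fgf21 and Nupr1, and in 0.192% of all. The cyclic AMP element TGACGTCA was in none of the 10, in Ppp1r15a, and in 1.79% of all. A match is a run of letters, not a measured binding site, and these windows leave out introns and distant elements.

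The stretches that held the core in Asns and Trib3, and in 4 of the other targets that differed between the groups in opposite directions, are shown 5′ to 3′ on the gene's own strand with the core in capitals. Where the core lies on the opposite strand, the capitals read as its reverse complement. The 4 were chosen after their values were seen. Positions count from the start, with -1 the last base before it.
Asns, chr6:7693210-7693269, minus strand, positions -60 to -1: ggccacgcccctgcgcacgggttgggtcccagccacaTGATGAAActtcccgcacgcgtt
Trib3, chr2:152344028-152344057, minus strand, positions 4 to 33: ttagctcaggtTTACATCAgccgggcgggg
Slc7a11, chr3:50443642-50443690, minus strand, positions -77 to -29: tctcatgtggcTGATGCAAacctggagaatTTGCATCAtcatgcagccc
Atf3, chr1:191183425-191183454, minus strand, positions -121 to -92: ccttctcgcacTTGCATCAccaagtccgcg
Herpud1, chr8:94386306-94386335, plus strand, positions -123 to -94: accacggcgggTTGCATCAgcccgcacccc
Nupr1, chr7:126625562-126625591, minus strand, positions -121 to -92: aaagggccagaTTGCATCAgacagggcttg
Slc7a11 held the core on either strand, and the other 5 stretches held it on 1.

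The 10 genes did not move as a block. Between M(CSF1) and M(CSF2), Atf4 and Trib3 rose, Shmt2 and Sesn2 fell, and the other 6 did not pass an adjusted p of 0.05 (limma, Benjamini-Hochberg over all genes). These 4 of 10 (40%) stand beside 27.5% of all genes called in this comparison, 11.9% higher and 15.6% lower. All genes include dim ones, whereas all 10 read above the level of olfactory receptor genes (3.36). A fit of the 13310 genes with a mean signal above that level called 5648 of them, and 4 of the 10. A fit without genes below the median gene, by mean signal, called 5277 of 9969, and 6 of the 10. The share called was larger among brighter genes. The groups did not overlap for 6 of the 10, beside 38.9% of all genes. The median difference, M(CSF2) minus M(CSF1), was -0.10 over the 10 genes and 0.04 over all genes on the log2 scale. The count of calls changed with the array left out. It was 2 of 10 without M(CSF2) replicate 2 or without M(CSF2) replicate 3, and 6 without M(CSF1) replicate 1. A fit on fewer arrays also has less power to detect a difference. The range of calls over all genes in such fits is given in the last section.

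**Figure D1:**
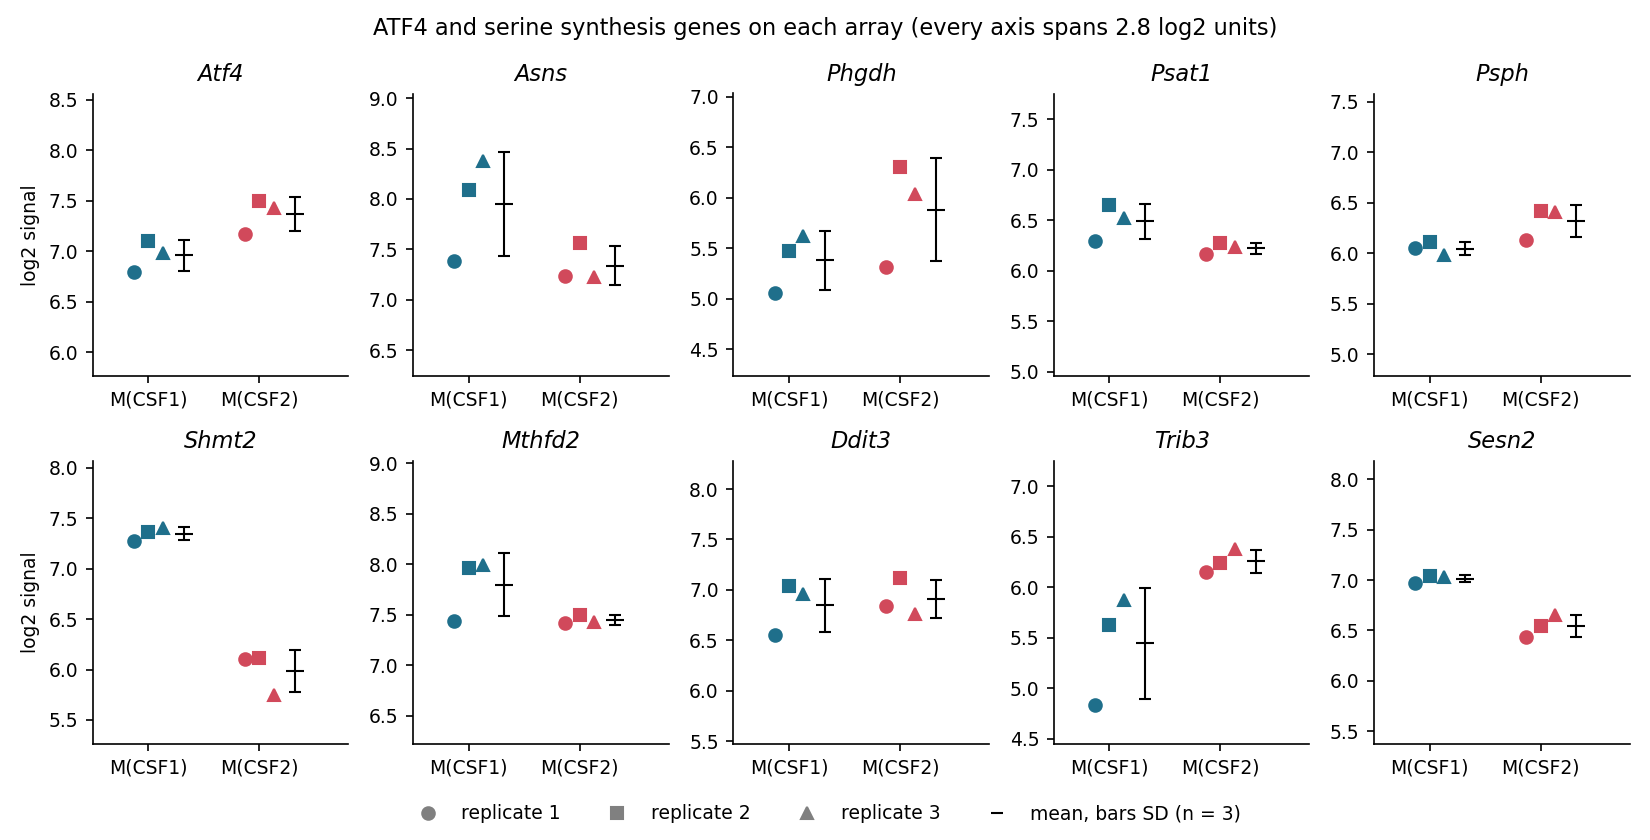
Log2 signal of each of the 10 genes on each array, with M(CSF1) in blue and M(CSF2) in red, the marker shape giving the replicate number and the black mark the group mean with its SD (n = 3). Shmt2 separates the groups most, from a mean of 7.34 to 5.99, and replicate 1 of M(CSF1) is the lowest of its group for 9 of the 10 genes.

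Atf4 itself read 6.80, 7.10 and 6.99 on the M(CSF1) arrays and 7.18, 7.49 and 7.43 on the M(CSF2) arrays. All 3 M(CSF2) values lay above all 3 M(CSF1) values, though the gap between the groups was narrow. The difference was 0.41 (SE 0.11, adjusted p = 0.0326), a 1.33-fold rise with a 95% interval of 1.10 to 1.59. Leaving out an array ended the call in 4 of 6 cases: without M(CSF1) replicate 1 (0.32, adjusted p = 0.117), M(CSF1) replicate 3 (0.42, adjusted p = 0.0764), M(CSF2) replicate 2 (0.34, adjusted p = 0.117) or M(CSF2) replicate 3 (0.37, adjusted p = 0.105). The rise is of mRNA signal, and the arrays do not measure ATF4 protein.

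Trib3 encodes a pseudokinase that ATF4 and CHOP induce and that feeds back on both. It read 4.83, 5.63 and 5.88 in M(CSF1) and 6.15, 6.23 and 6.38 in M(CSF2). The M(CSF2) arrays were close together and all higher, and M(CSF1) replicate 1 lay well below the other M(CSF1) arrays. The difference was 0.81 (SE 0.24, adjusted p = 0.0428), a 1.76-fold rise (95% interval 1.18 to 2.60). The rise was smaller and still called once that array was left out (0.50, adjusted p = 0.0254). Leaving out any of 4 other arrays ended the call: M(CSF1) replicate 2 (0.90, adjusted p = 0.0957), M(CSF2) replicate 1 (0.86, adjusted p = 0.117), M(CSF2) replicate 2 (0.82, adjusted p = 0.128) or M(CSF2) replicate 3 (0.75, adjusted p = 0.134).

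Ddit3 encodes CHOP, the factor through which long stress leads to cell death. Its signals were 6.55, 7.04 and 6.96 in M(CSF1) and 6.84, 7.12 and 6.76 in M(CSF2). The groups overlapped. The difference of 0.06 had a 95% interval from -0.29 to 0.41 (adjusted p = 0.824) and changed sign without M(CSF1) replicate 1 (-0.091) or M(CSF2) replicate 2 (-0.048).

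Sesn2 encodes sestrin 2, a leucine-binding inhibitor of the growth kinase mTORC1. Its M(CSF1) values of 6.97, 7.04 and 7.03 were the tightest of the 10 genes, and the M(CSF2) arrays read 6.43, 6.55 and 6.65. All M(CSF2) arrays were lower. The fall of 0.47 (SE 0.08, adjusted p = 0.00277), 1.39-fold (95% interval 1.22 to 1.57), was called in all 15 alternatives tried. So the ATF4 targets Trib3 and Sesn2 differed between the groups in opposite directions.

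Asns, which makes asparagine from aspartate and glutamine and carries the CARE core shown above, read 7.38, 8.09 and 8.37 in M(CSF1) and 7.23, 7.57 and 7.22 in M(CSF2). M(CSF1) replicate 1 lay inside the range of the M(CSF2) arrays, and the other 2 M(CSF1) arrays lay above it. The difference of -0.61 (SE 0.24) did not pass the test (adjusted p = 0.108, 95% interval -1.17 to -0.05). Leaving that array out gave -0.89, which was called (adjusted p = 0.00865), as was -0.61 without genes below the median gene (adjusted p = 0.04). Leaving out M(CSF1) replicate 3 gave -0.40 instead (adjusted p = 0.271).

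The 3 enzymes of serine synthesis gave differences of mixed sign, and none was called. Phgdh, the first step, read 5.05, 5.47 and 5.62 in M(CSF1) and 5.31, 6.30 and 6.04 in M(CSF2), with M(CSF2) replicate 1 inside the M(CSF1) range. The difference was 0.50 (95% interval -0.10 to 1.10, adjusted p = 0.208), and leaving that array out gave 0.79, which was called (adjusted p = 0.0339). Without M(CSF2) replicate 2 it was instead 0.29 (adjusted p = 0.512), and without M(CSF1) replicate 1 0.34 (adjusted p = 0.511). A second probe set, which the annotation assigns to Phgdh together with Gm6756, read 5.69, 5.99 and 6.08 against 6.05, 6.54 and 5.97. Its groups overlapped (difference 0.27, adjusted p = 0.328 over all probe sets). It cannot tell the 2 genes apart.

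Psat1, the aminotransferase of the second step, read 6.30, 6.65 and 6.52 in M(CSF1) and 6.16, 6.27 and 6.23 in M(CSF2). The groups did not overlap, by a margin far smaller than the spread within M(CSF1). The difference was -0.27 (95% interval -0.50 to -0.03, adjusted p = 0.0922). It was called without M(CSF1) replicate 1 (-0.36, adjusted p = 0.0237) and with arrays centred on their medians (-0.31, adjusted p = 0.0453), whereas quantile normalization gave -0.16 (adjusted p = 0.36).

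Psph, the phosphatase of the last step, read 6.05, 6.11 and 5.98 in M(CSF1) and 6.13, 6.42 and 6.40 in M(CSF2). Every M(CSF2) array was higher, replicate 1 by little. The difference was 0.28 (95% interval 0.05 to 0.50, adjusted p = 0.073). It was called after quantile normalization (0.37, adjusted p = 0.0145), without M(CSF2) replicate 1 (0.37, adjusted p = 0.0174) and without genes below the median gene (0.28, adjusted p = 0.0493).

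Shmt2, which splits serine into glycine and a folate-bound carbon unit in mitochondria, had the largest difference of the 10. It read 7.27, 7.36 and 7.40 in M(CSF1) and 6.10, 6.12 and 5.75 in M(CSF2). The gap between the groups was wider than the spread in either. The fall of 1.36 (SE 0.11, adjusted p = 6.92e-05) amounts to 2.56-fold (95% interval 2.14 to 3.06), and it was called in all 15 alternatives, at -1.23 to -1.42.

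Mthfd2, the mitochondrial dehydrogenase that takes up that carbon unit next, read 7.44, 7.96 and 7.99 in M(CSF1) and 7.42, 7.50 and 7.42 in M(CSF2). M(CSF1) replicate 1 lay among the M(CSF2) arrays. The difference of -0.35 (95% interval -0.69 to -0.01) was not called (adjusted p = 0.129). Leaving out that array gave -0.53, which was called (adjusted p = 0.00353).

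The array that recurs in these results is M(CSF1) replicate 1. It was the lowest of its group for 9 of the 10 genes, Psph being the exception, whereas it was the lowest for 36.2% of all genes. The median deviation of the 10 genes from their group mean was -0.24 on it, and 0.14 and 0.08 on M(CSF1) replicates 2 and 3. Asns (-0.57) and Trib3 (-0.62) deviated furthest. In M(CSF2), replicate 1 was the lowest for 7 of the 10, with a median deviation of -0.11, against 38.3% of all genes. The other targets of the response showed the like in M(CSF1): 21 of 29 were lowest on replicate 1, with a median deviation of -0.13. The cell cycle list had 15 of 24 lowest on it (median deviation -0.07) and the folate list 8 of 21. In the list of sestrins, tribbles and amino acid sensors it was 4 of 22, in that of eIF2 and its kinases 2 of 16, and in the other arms of the unfolded protein response 2 of 18. The median of all genes deviated by 0.0029 on that array. Whether culture or handling differed for that array was not tested.

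**Figure D2:**
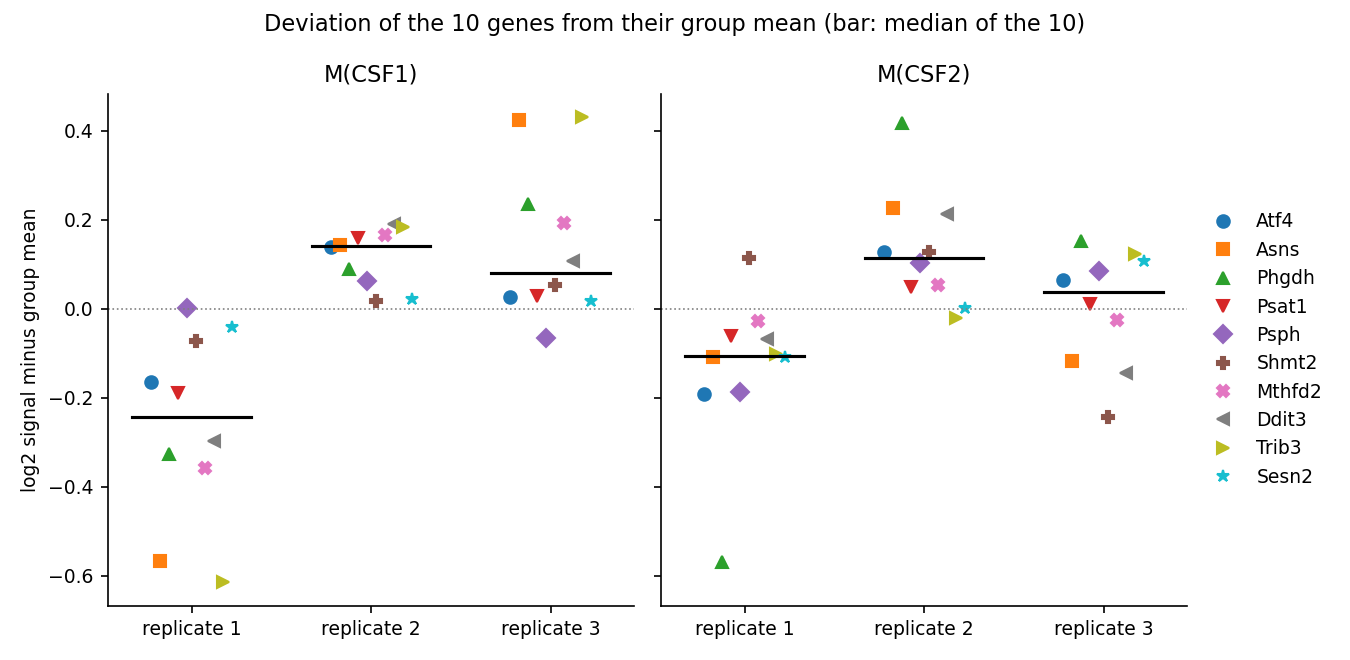
Log2 signal of each of the 10 genes minus its group mean, by array, for M(CSF1) on the left and M(CSF2) on the right, with a bar at the median of the 10. The medians on replicate 1 are -0.24 in M(CSF1) and -0.11 in M(CSF2), and those on replicates 2 and 3 lie between 0.04 and 0.14.

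The paralogs of these genes did not follow them in every case. Atf5, a factor induced by ATF4 and also controlled at translation, rose by 1.38 (adjusted p = 1.25e-05), and Atf3, a stress-induced factor, by 0.89 (adjusted p = 0.000168). Sesn1, a sestrin under p53 and FoxO control, read 8.50, 8.21 and 8.11 in M(CSF1) and 4.74, 4.60 and 4.61 in M(CSF2). No other sestrin or tribbles gene listed differed as much: Sesn1 fell by 3.62 (SE 0.11, adjusted p = 7.26e-07), Sesn3 gave 0.011 (adjusted p = 0.921) with a sign that turned after quantile normalization (-0.035) or median centring (-0.032), and Trib2 gave -0.02 (adjusted p = 0.843). Trib1, a scaffold that sends C/EBP factors to degradation, fell by 0.84 (adjusted p = 0.00647), while Trib3 rose.

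Shmt1, the cytosolic counterpart of Shmt2, fell by 0.43 (adjusted p = 0.0168), a call that ended without M(CSF1) replicate 2 (-0.37, adjusted p = 0.0769), M(CSF2) replicate 1 (-0.41, adjusted p = 0.0721) or M(CSF2) replicate 3 (-0.36, adjusted p = 0.0598). Mthfd2l, a mitochondrial isozyme of Mthfd2, rose by 0.53 (adjusted p = 0.00236). Mthfd1, the cytosolic enzyme, fell by 0.47 (adjusted p = 0.0303), and kept its call only when M(CSF1) replicate 3 was the array dropped. In the other 5 such fits its adjusted p lay between 0.0747 (without M(CSF2) replicate 1) and 0.13 (without M(CSF1) replicate 2). Mthfd1l, the mitochondrial formate producer, gave -0.16 (adjusted p = 0.503). So of the mitochondrial pair, Mthfd2l rose and the difference of Mthfd2 had the opposite sign without being called.

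**Figure D3:**
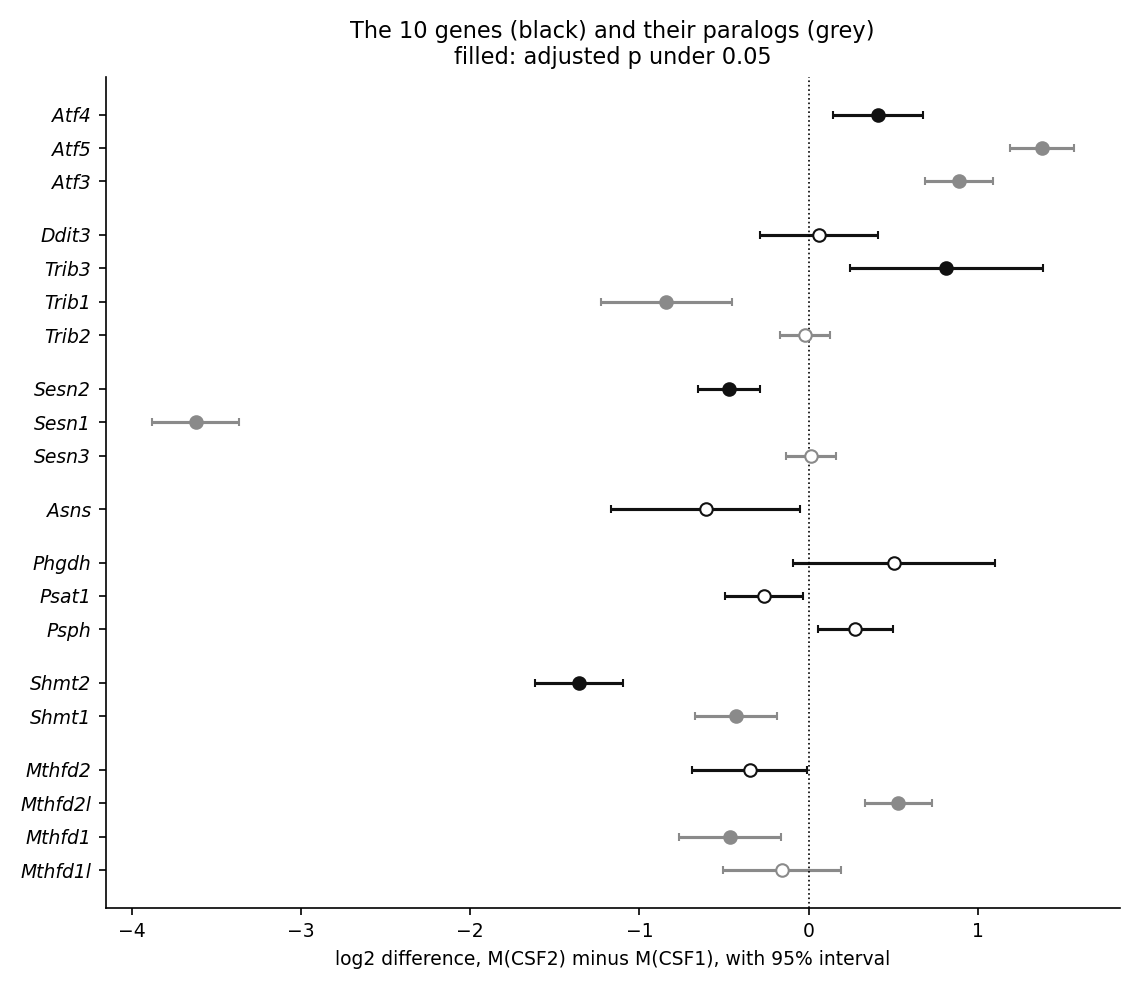
Difference between M(CSF2) and M(CSF1) for the 10 genes (black) and their paralogs (grey), on the log2 scale with 95% intervals, filled where the adjusted p was under 0.05. Sesn1 (-3.62) and Shmt2 (-1.36) lie furthest to the left, and Atf5 (1.38) furthest to the right.

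The other targets of ATF4 and the integrated stress response also split. Of 29 measured, 10 rose, 5 fell and 14 were not called, with a median difference of 0.05. That is 51.7% called, beside 27.5% of all genes (11.9% higher and 15.6% lower). Without genes below the median gene, 15 of the 21 listed genes that remained were called, beside 5277 of 9969 genes. Slc7a11, the cystine transporter that supplies glutathione synthesis, read 5.44, 5.22 and 5.14 in M(CSF1) and 9.70, 9.56 and 9.94 in M(CSF2). This was the largest difference in the list, 4.47 (SE 0.12, adjusted p = 4.52e-07). Slc3a2, its heavy chain partner, rose by 0.86. The mTORC1 inhibitor Ddit4 rose by 1.96 and the C/EBP factor Cebpb by 1.35. Among the genes that fell were Herpud1 (-1.03), which acts in the removal of misfolded proteins from the endoplasmic reticulum, the arginine and lysine transporter Slc7a1 (mean signal 6.97 in M(CSF1) and 5.97 in M(CSF2)) and the repressor Jdp2 (-0.71). The stress cofactor Nupr1 fell by 0.83 (adjusted p = 0.0238), but not without M(CSF1) replicate 2 (adjusted p = 0.116), M(CSF1) replicate 3 (adjusted p = 0.0928) or M(CSF2) replicate 1 (adjusted p = 0.0824). Slc3a2 was chosen after its values were seen.

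Genes with the CARE core in their promoter window went both ways too. Of the 12, which are Asns and Trib3 with the 10 other targets, 3 rose (Slc7a11, Atf3 and Trib3), 4 fell (Herpud1, Nupr1, Jdp2 and Pck2) and 5 were not called (Asns, Chac1, Fgf21, Slc1a4 and Vldlr), where 27.5% of all genes were called. Slc7a11, with the core on either strand, had the largest difference among them. A link between the number of cores and the size of a difference was not tested. Pck2, the mitochondrial enzyme that makes phosphoenolpyruvate, fell by 0.48 (adjusted p = 0.00654), and Chac1, which degrades glutathione, gave -0.50 (adjusted p = 0.139).

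Upstream of ATF4, none of the 4 eIF2 kinases was called. Eif2ak3 (PERK), the sensor of unfolded protein, read 5.78 on all 3 M(CSF1) arrays and 5.69, 5.38 and 5.78 on the M(CSF2) arrays. M(CSF1) replicates 1 and 2 and M(CSF2) replicate 3 held the identical value (5.77911), a tie whose origin was not tested. The difference was -0.16 (adjusted p = 0.337). Ties recur in other listed genes, as in Wdr59, at 5.59235 on all 3 M(CSF1) arrays (SD 0), an example chosen after its values were seen. Eif2ak4 (GCN2), the sensor of amino acid shortage, gave 0.21 (adjusted p = 0.472) and Eif2ak1 (HRI), the heme sensor, -0.18 (adjusted p = 0.307). Eif2ak2 (PKR), the sensor of double-stranded RNA, gave -0.59 (adjusted p = 0.12). Without genes below the median gene that difference was called (adjusted p = 0.0462), and without M(CSF2) replicate 2 it was -0.34 (adjusted p = 0.3).

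The list of these kinases, their regulators Gcn1 and Impact, the phosphatase subunits, eIF2, eIF2B and Eif2a had 16 measured genes. Of them 1 rose, 5 fell and 10 were not called (median -0.20), 37.5% called beside 27.5% of all genes, of which 15.6% were lower. The fit without genes below the median gene kept all 16 and called 8, beside 5277 of 9969 genes. The genes that fell included the eIF2 subunits Eif2s2 (-0.85) and Eif2s3x (-0.80), the eIF2B subunit Eif2b1 (-0.74), and Eif2a (-0.74), an initiation factor that is not part of eIF2. Eif2s2 was not called without M(CSF1) replicate 2 (-0.85, adjusted p = 0.0548). A second, dimmer probe set of Eif2s2 gave -0.89 (adjusted p = 0.00144 over all probe sets), and the mean of both -0.87 (adjusted p = 0.000889). Eif2b2, another subunit of eIF2B, rose by 0.61 (adjusted p = 0.00099). Of the other eIF2B subunits, chosen after their values were seen, Eif2b3 fell by 0.54 (adjusted p = 0.00216), Eif2b4 gave 0.11 (adjusted p = 0.62) and Eif2b5 gave 0.18 (adjusted p = 0.124).

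Among 21 other genes of folate, glycine and serine metabolism, 1 rose (Mthfd2l), 9 fell and 11 were not called, with a median of -0.18. That is 47.6% called, beside 27.5% of all genes, of which 15.6% were lower. Without genes below the median gene, 9 of the 15 listed genes that remained were called, beside 5277 of 9969 genes. Without M(CSF1) replicate 2 or without M(CSF2) replicate 1 the called genes of this list numbered 6, with 5 lower. The folate receptor Folr2, a marker of resident-type macrophages, read 7.63, 7.36 and 7.51 in M(CSF1) and 3.91, 3.77 and 3.86 in M(CSF2). It fell by 3.65 (SE 0.09, adjusted p = 3.49e-07). Mtr, which uses methyl folate to make methionine, fell by 2.87 (adjusted p = 6.95e-06), and Sfxn1, which carries serine into mitochondria, by 0.65 (adjusted p = 0.00247). Dld, a subunit of the glycine cleavage system and of other dehydrogenases, fell by 0.67 (adjusted p = 0.0384), and kept its call when M(CSF2) replicate 1 or M(CSF2) replicate 2 was dropped, at -0.42 in the latter case. In the other 4 such fits its adjusted p ran from 0.0555 (without M(CSF2) replicate 3) to 0.147 (without M(CSF1) replicate 1).

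In the list of other sestrins, tribbles and amino acid sensors of mTORC1, 2 of 22 rose, 4 fell and 16 were not called, 27.3% called beside 27.5% of all genes. Castor1, an arginine sensor, rose by 1.77 (adjusted p = 4.61e-05), and Castor2, its relative, fell by 0.41 (adjusted p = 0.0136). Wdr24 rose by 0.47 and Depdc5 fell by 0.44. The call of Castor2 was lost without M(CSF1) replicate 1 (adjusted p = 0.0542), M(CSF1) replicate 2 (0.0575), M(CSF2) replicate 1 (0.0617) or M(CSF2) replicate 2 (0.0541), each an adjusted p, and the mean of its probe sets gave -0.26 (adjusted p = 0.0457). The other arms of the unfolded protein response had 2 of 18 higher, 4 lower and 12 not called, with a median of 0.00016 (33.3% called, beside 27.5% of all genes). The fit without genes below the median gene kept all 18 and called 6, beside 5277 of 9969 genes. In the list of sestrins, tribbles and amino acid sensors that fit called 6 of 16. The sensor Atf6 fell by 1.70 (adjusted p = 7.81e-06) and the ubiquitin ligase adaptor Sel1l by 0.78, and the factor Xbp1 (0.80) and the disulfide isomerase Pdia4 (0.98) rose. A second, dim probe set of Pdia4 gave 0.12 (adjusted p = 0.474 over all probe sets), and the mean of both 0.55 (adjusted p = 0.00227). Pdia6 fell by 0.40 and Manf by 0.29, the latter not without M(CSF2) replicate 3 (adjusted p = 0.0536) nor after quantile normalization (adjusted p = 0.11).

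**Figure D4:**
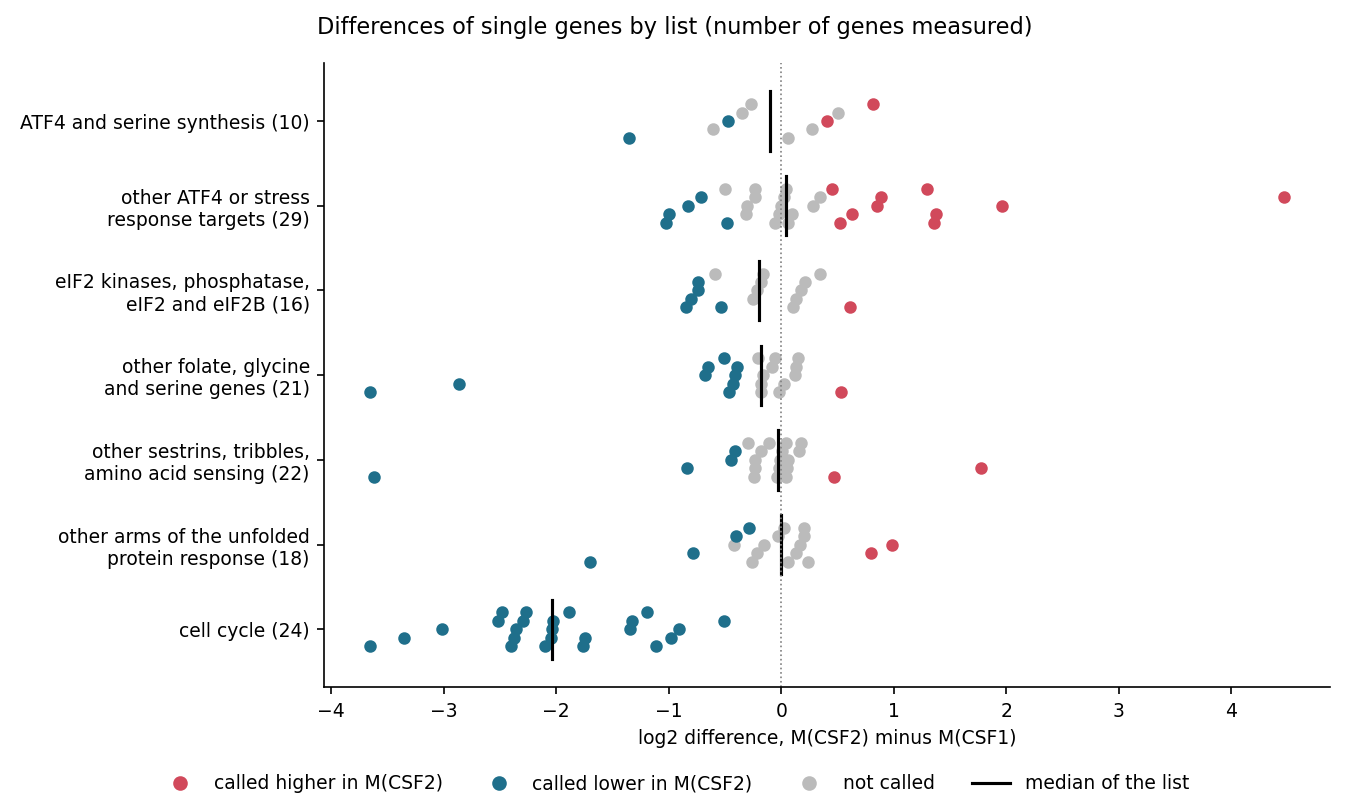
Difference between M(CSF2) and M(CSF1) for every measured gene of each list, on the log2 scale, red where called higher, blue where called lower and grey where not called, with a bar at the list median. The medians of the first 6 lists lie between -0.20 and 0.05 with called genes on either side of 0, and all 24 cell cycle genes lie to the left.

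Cell cycle genes, which mark dividing cells, a large user of folate-bound carbon, were all lower in M(CSF2): 24 of 24 fell, beside 15.6% of all genes, with a median of -2.04, led by Mcm6 (-3.65), Ccna2 (-3.35), Rrm2 (-3.02) and Mcm5 (-2.52). The mean signal of that list ran from 6.84 to 7.06 on the M(CSF1) arrays and from 4.85 to 5.01 on the M(CSF2) arrays. Tyms is in both this list and the folate list. The part of cell division in the fall of Shmt2 and of the folate genes was not tested.

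The labelled cell type was visible in both groups. All 8 macrophage markers lay above the level of olfactory receptor genes (3.36, the 95th percentile of 1027 such genes). Their list mean was 10.1 to 10.2 on M(CSF1) arrays and 10.1 on M(CSF2) arrays. Single markers differed: 3 were called higher in M(CSF2), 3 lower and 2 were not called, with differences from -1.23 to 1.71. Among dendritic markers 5 of 9 rose and none was called lower, with differences from -0.08 to 5.05. The list mean went from 4.25-4.38 to 6.24-6.36. Those called besides Clec9a were Itgax (5.05), H2-Aa (4.18), Cd74 (3.95) and Ccr7 (3.93), named after their values were seen. Clec9a, called at means of 2.55 and 2.82, Xcr1 and Siglech lay at or below the olfactory receptor level in both groups. Neutrophil markers had 3 of 13 higher and 1 lower (list mean 4.09-4.28 and 4.55-4.74), with differences from -1.57 to 4.44. Ly6g, Ltf, Ngp, Cxcr2 and Retnlg lay at or below the olfactory receptor level in both groups. Mast cell and basophil markers had 4 of 10 higher (3.18-3.40 and 4.15-4.22), with differences from -0.10 to 4.43. Cpa3, Mcpt4, Fcer1a, Ms4a2 and Mcpt8 were at or below that level, and Mcpt8 (means 2.70 and 3.06) was among those called higher. Osteoclast markers had 3 of 7 higher and 2 lower (6.64-7.09 and 7.30-7.48), with differences from -1.09 to 4.70. Stromal markers had 1 of 7 each way (4.65-4.75 and 4.78-4.93), with differences from -2.91 to 3.30. Lymphocyte markers had 1 of 7 lower (3.63-3.84 and 3.34-3.46), with differences from -2.20 to 0.29. Called were 75% of the macrophage, 55.6% of the dendritic, 30.8% of the neutrophil and 40% of the mast cell and basophil list. For the osteoclast, stromal and lymphocyte lists it was 71.4%, 28.6% and 14.3%, beside 27.5% of all genes (11.9% higher, 15.6% lower). The part of other cells in the differences above was not tested, and in bulk RNA fewer cells of a type and less RNA per cell cannot be told apart.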

How the data were processed

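RNA of 3 M(CSF1) and 3 M(CSF2) samples was measured on 1-colour arrays. The deposited table holds log2 signals for 28941 probe sets, and base 2 was inferred from their range (1.48 to 13.27). The submitters' processing notes name MAS5; background correction, normalization and summary are not given in the sources used here, and detection calls were not used. Symbols came from the platform annotation: 21789 probe sets named 1 gene, 1621 several and 5531 none, and 21698 symbols were matched to RefSeq (GRCm38.p6). The brightest probe set stood for each of 19938 genes, with no filter. Limma 3.58.1 in R 4.3.3 (lmFit, eBayes, 2-sided) gave every adjusted p, by Benjamini-Hochberg, called under 0.05. The fit was tested on simulated data made for this comparison of M(CSF2) with M(CSF1), with 200 of 19938 genes changed. There 50% of changes of 0.5 and 86% of changes of 1 on the log2 scale were recovered, and 11 of 179 calls were false. In the data 27.5% of all genes were called, a far larger share, so these rates may not carry over. The genes and lists were chosen with earlier results of these data known. Named were the 10 genes, their paralogs, the 4 eIF2 kinases and up to 4 called genes a direction in each list. Listed genes without a probe set of their own were not analysed here. Alternatives were 2 scalings, 2 filters, 2 treatments of probe sets, 2 variance models, the replicate number as a block, and each array left out.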

Additional observations from a re-analysis of the deposited data

How the results depend on the processing

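The call of Shmt2 and Sesn2 lower in M(CSF2) held in all 15 alternatives, and Atf4 and Trib3 kept their direction in all 15 with a call in 11 and 10. Of the 10 genes, 4 were called, and between 2 and 6 with an array left out. The called genes of the folate list numbered 10, and between 6 and 9 with an array left out. Over all genes 5488 were called, and between 4253 and 5490 with an array left out. Trib3 was not called with every probe set tested alone (0.81, adjusted p = 0.0538), where more features were tested. Values near 0 turned sign: Ddit3, at -0.091 without M(CSF1) replicate 1 and -0.048 without M(CSF2) replicate 2, ran from -0.091 to 0.15 with an array left out. Sesn3 was -0.035 after quantile normalization, -0.032 with arrays centred on their medians, and ran from -0.0097 (without M(CSF1) replicate 2) to 0.025 with an array left out. With the replicate number as a block, 6 of the 10 genes were called, with Asns (-0.61, adjusted p = 0.0485) and Phgdh (0.50, adjusted p = 0.0256) added, and 5072 of all genes. It also changed the calls of Eif2ak2 (-0.59, adjusted p = 0.0229) and Manf (-0.29, adjusted p = 0.0645) and of no other gene named in the report by the rule. Over all genes the numbers showed no pairing of the arrays. Deviations of same-numbered arrays from their group means correlated at 0.0039, -0.04 and -0.25, and no array correlated best with its own number. For the 10 genes, replicate 1 was the lowest of its group for 9 in M(CSF1) and for 7 in M(CSF2). Pairing within the 10 genes was not tested. The number of arrays limits the precision. No detection calls were used, so signal over background was judged from olfactory receptor genes alone.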
